A study of Homo sapiens with 12 samples.

Results

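The genes described here are 40 genes of the cellular response to low oxygen and of glycolysis, listed by name: 2 HIF alpha subunits, 17 other hypoxia-induced genes, 3 sugar and lactate transporters and 18 glycolytic enzymes. Where a gene had several probe sets, the one brightest on average across the 12 arrays stood for it. By this rule 38 of the 40 were measured, out of 19775 genes on the array, and all 38 passed the filter on low signals that left 18621 genes for testing. CA9 and SLC16A3 (the lactate exporter MCT4) are not analysed here.

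The study lowered 2 proteins of the SIN3-HDAC histone deacetylase complex in A549 cells, an established human lung adenocarcinoma line, with siRNA, a short RNA that directs cleavage of its target mRNA. FAM60A, now named SINHCAF, and SDS3, now named SUDS3, were each set against their own cells given non-targeting siRNA, with 3 arrays in each of the 4 groups. The FAM60A experiment therefore has 3 FAM60A siRNA arrays and 3 control arrays, and the SDS3 experiment has 3 SDS3 siRNA arrays and 3 other control arrays. All cells were plated at 75000 per well in F-12K medium with 10% serum, transfected on the next day with 50 nM siRNA and Dharmafect 1, and lysed 3 days after transfection. The protocol in the labels names the FAM60A and non-targeting siRNAs, and gives no oxygen level. The wells are described as triplicates, with nothing said of separate cultures. The p-values therefore set each difference only against the variation among these samples, and that variation may be technical.

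HIF1A and EPAS1 encode the oxygen-regulated alpha subunits of the hypoxia-inducible factors. At normal oxygen, prolyl hydroxylases of the EGLN family mark these subunits for destruction through VHL; at low oxygen the subunits persist, pair with ARNT and bind the core letters ACGTG or GCGTG near their targets. HIF-1 is known for raising glucose uptake and glycolytic enzymes, and both factors raise angiogenic and stress genes such as VEGFA and ANGPTL4.

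The targeted mRNAs fell in their own experiment. SINHCAF read 11.99, 11.97 and 12.01 (log2 signal) in its controls and 9.36, 9.12 and 9.43 in the knockdown arrays, 15.5% of control (limma, adjusted p = 7.76e-09). SUDS3 read 10.11, 10.02 and 10.03 in its controls and 8.48, 8.32 and 8.62 in the knockdown arrays, 33.4% of control (adjusted p = 3.06e-06). Knockdown and control arrays did not overlap for either target. In the SDS3 knockdown SINHCAF itself rose by 0.35 (adjusted p = 0.00291), and in the FAM60A knockdown SUDS3 read 0.04 (adjusted p = 0.698).

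The median signal of an array was 186 to 192.6 for the FAM60A arrays but 96.8 to 98.3 for the SDS3 arrays, so levels are never set across experiments. All 6 A549 and lung epithelium markers read above log2 5 in every group, at 8.72 to 15.05 on the FAM60A arrays and 7.07 to 14.95 on the SDS3 arrays. So did all 6 measured alveolar type II markers and all 5 fibroblast markers, so passing this level does not tell cell types apart. The brightest alveolar type II, fibroblast, endothelial and leukocyte markers read 8.76, 8.62, 8.49 and 7.82 in the FAM60A experiment and 7.71, 8.20, 7.57 and 7.36 in the SDS3 experiment, values that probe sets of different genes do not allow to be ranked. Of the 6 epithelial markers, 2 rose and 2 fell in the FAM60A knockdown, and 1 rose and 5 fell in the SDS3 knockdown. The 24 poly-A control probe sets, which read RNAs added during labelling, were 0.10 (log2) higher in the FAM60A knockdown arrays than in their controls (exact permutation, two-sided p = 0.5) and 0.32 higher in the SDS3 knockdown arrays (p = 0.1, the smallest that 3 against 3 arrays can give). Scaling all arrays to these probe sets takes that amount off every change, and moves the median change of all genes to -0.12 and -0.32.

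In the FAM60A knockdown more of the 38 genes were called higher than lower. Of the 38 genes, 21 rose, 1 fell and 16 did not pass, against 19.2% of all tested genes higher, 17.6% lower and 36.8% called in either direction. The largest rises were those of ENO2, a neuronal enolase isoform (2.15-fold), VLDLR, a lipoprotein receptor (1.99-fold), PFKFB4, a regulator of phosphofructokinase (1.82-fold), and SLC2A1, the glucose transporter GLUT1 (1.76-fold). The 1 gene that fell was SLC2A3, the glucose transporter GLUT3, at 42.9% of control. The median log2 change was 0.22 over the 38 genes and -0.02 over all tested genes. In 28 of the 38 genes the 3 knockdown arrays lay above the 3 controls and in 4 below, together 84.2%, against 23.7% above, 24.4% below and 48.1% together of all tested genes. Scaled to the poly-A probe sets, 11 genes passed as higher and SLC2A3 as lower. Of all 18621 tested genes 1349 were then higher and 2251 lower. That scaling ended the calls of HIF1A, EPAS1, ANGPTL4, BNIP3, BNIP3L, DDIT4, PDK3, PFKL, PFKP and ALDOA, with values of 0.06 to 0.35.

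SDS3 knockdown was accompanied by fewer rises, mostly among the hypoxia-induced genes outside glycolysis. Here 14 of the 38 genes rose, 2 fell and 22 did not pass, against 15.8% of all tested genes higher, 18.8% lower and 34.6% called. The largest rises were those of ANGPTL4, a secreted inhibitor of lipoprotein lipase (2.65-fold), and VEGFA, the main angiogenic growth factor (1.90-fold). STC2, a secreted glycoprotein, fell to 59.6% of control and GBE1, the glycogen branching enzyme, to 68.7%. The median log2 change was 0.11 over the 38 genes and 0.01 over all tested genes. The knockdown arrays lay above the controls in 20 genes and below in 4, together 63.2%, against 22.4% above, 25.2% below and 47.6% together of all tested genes. Scaled to the poly-A probe sets, 5 genes passed as higher (VEGFA, ANGPTL4, NDRG1, KDM3A and VLDLR) and 11 as lower. Of all 18621 tested genes 497 were then higher and 9121 lower, so the 11 falls are no more than that background.

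**Figure D1:**
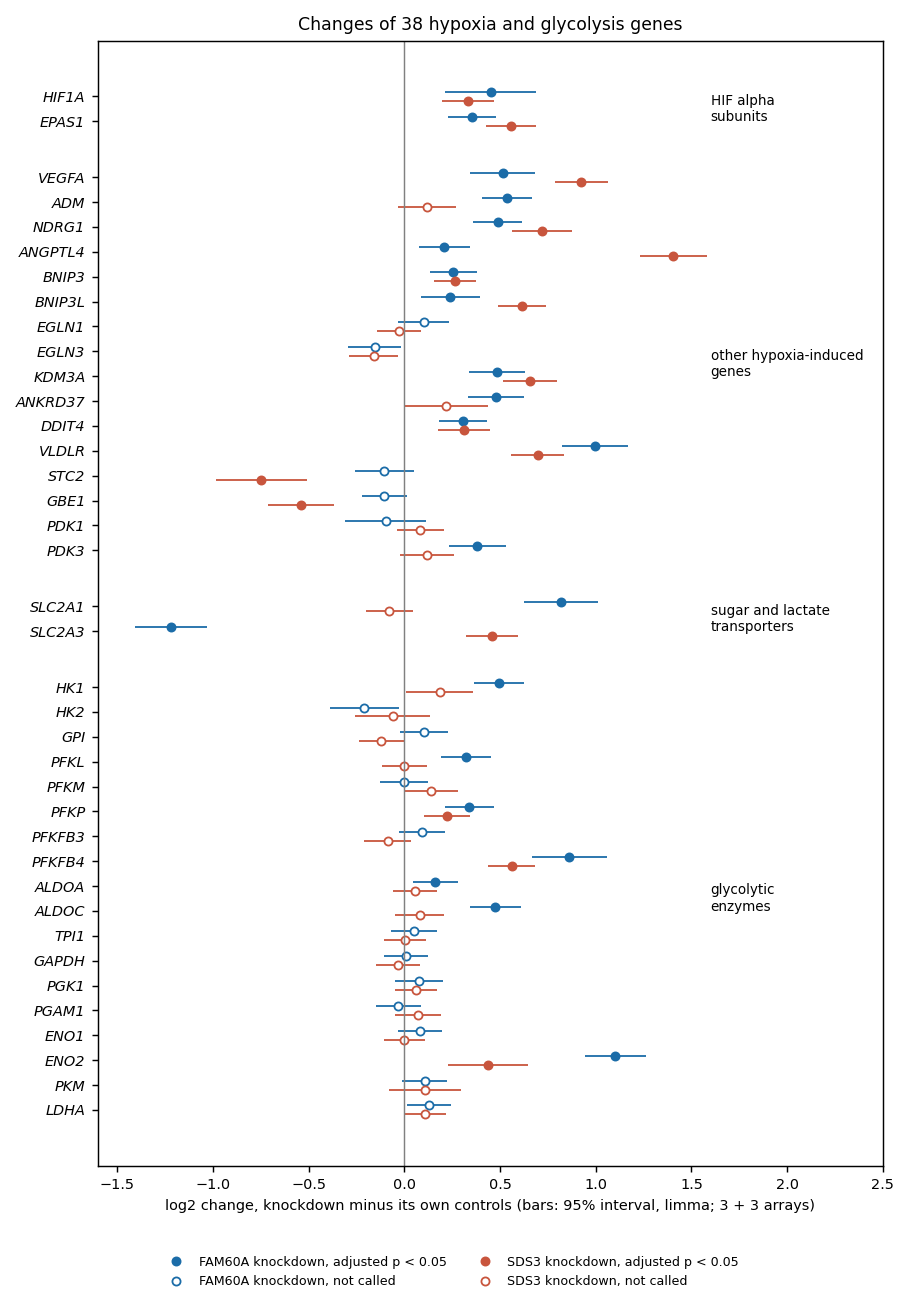
Log2 change (knockdown minus its own control) of the 38 measured genes in the FAM60A and SDS3 experiments, with 95% confidence intervals from limma over 3 against 3 arrays, ordered by role. Most points lie right of 0 in the FAM60A knockdown, and SLC2A3 lies at -1.22. GAPDH and the other enzymes of the lower steps of glycolysis, except ENO2, sit close to 0 in both knockdowns.

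Both HIF alpha mRNAs rose in both knockdowns, although only modestly, and in the SDS3 knockdown both calls ended when arrays were scaled to the poly-A probe sets (HIF1A 0.0071, EPAS1 0.23). HIF1A read 13.51, 13.12 and 13.59 in the FAM60A controls and 13.79, 13.95 and 13.83 in the FAM60A knockdown, then 13.13, 13.04 and 13.03 in the SDS3 controls and 13.43, 13.31 and 13.45 in the SDS3 knockdown. The groups did not overlap in either experiment, but 1 FAM60A control, at 13.12, lay well under the other two. HIF1A rose by 0.45 ± 0.11 (log2, SE; 1.37-fold, adjusted p = 0.00659) in the FAM60A knockdown and by 0.33 ± 0.06 (1.26-fold, adjusted p = 0.00272) in the SDS3 knockdown. Without that control the FAM60A change was 0.31 (adjusted p = 0.00768).

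EPAS1, which encodes HIF-2 alpha, read 13.24, 13.27 and 13.27 in the FAM60A controls and 13.54, 13.66 and 13.63 in the knockdown. In the SDS3 experiment it read 12.77, 12.66 and 12.73 in the controls and 13.35, 13.25 and 13.22 in the knockdown. Every knockdown array lay above every control of its experiment. The rises were 0.35 ± 0.06 (1.28-fold, adjusted p = 0.000553) and 0.56 ± 0.06 (1.47-fold, adjusted p = 0.000123), and scaled to the poly-A probe sets the FAM60A calls of EPAS1 (0.25, adjusted p = 0.197) and HIF1A (0.35, adjusted p = 0.053) also ended. Neither gene passed the test of the difference between the knockdowns: for HIF1A the difference was -0.12 (95% confidence interval -0.41 to 0.17, adjusted p = 0.561) and for EPAS1 0.20 (0.04 to 0.37, adjusted p = 0.0715). A second EPAS1 probe set gave 0.63 (adjusted p = 0.000309) and 0.25 (adjusted p = 0.0941), with a difference of -0.38 (adjusted p = 0.0689). The dimmest EPAS1 probe set passed in neither (-0.20, adjusted p = 0.0911, and 0.08, adjusted p = 0.608), and with the mean of the EPAS1 probe sets the SDS3 rise was 0.30 (adjusted p = 0.0109).

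The prolyl hydroxylases EGLN1 and EGLN3, which act on the HIF alpha proteins and are themselves hypoxia-induced, passed in neither knockdown. EGLN1 differed from control by 0.10 (log2, adjusted p = 0.228) in the FAM60A and by -0.03 (adjusted p = 0.726) in the SDS3 knockdown. EGLN3 read 9.21, 9.12 and 9.12 in the FAM60A controls and 8.90, 9.03 and 9.05 in the knockdown, and 7.45, 7.35 and 7.30 in the SDS3 controls and 7.18, 7.24 and 7.20 in the knockdown. The EGLN3 knockdown arrays lay below the controls in both experiments, by -0.16 in each (adjusted p = 0.0747 and 0.058). A dimmer probe set of EGLN3 fell in both (-0.61, adjusted p = 0.000195, and -1.16, adjusted p = 0.000379), so the probe sets of EGLN3 do not give 1 answer. Those of EGLN1 also differ with SDS3 siRNA: another one fell (-0.38, adjusted p = 0.00103), with a difference between the knockdowns of -0.47 (adjusted p = 0.00197), and the mean of the EGLN1 probe sets fell as well (-0.20, adjusted p = 0.00952).

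Among the secreted and signalling products, VEGFA rose in both knockdowns and further with SDS3 siRNA. It read 9.45, 9.23 and 9.38 in the FAM60A controls against 9.80, 10.00 and 9.81 in the knockdown. In the SDS3 experiment the controls read 9.06, 8.98 and 8.95 and the knockdown arrays 9.94, 9.84 and 9.99. Neither pair of groups overlapped. The rises were 0.51 ± 0.08 (1.43-fold, adjusted p = 0.000326) and 0.93 ± 0.06 (1.90-fold, adjusted p = 1.07e-05), and they differed by 0.41 ± 0.10 (adjusted p = 0.00846). That difference was 0.19 (adjusted p = 0.585) after poly-A scaling, and the 3 other VEGFA probe sets gave smaller values. With FAM60A siRNA they read 0.19 (adjusted p = 0.0419), 0.08 (adjusted p = 0.379) and 0.17 (adjusted p = 0.151), and with SDS3 siRNA 0.35 (adjusted p = 0.00207), 0.21 (adjusted p = 0.0452) and 0.23 (adjusted p = 0.0798), in the same order.

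ANGPTL4 rose little with FAM60A siRNA and most of all 38 genes with SDS3 siRNA. It read 9.75, 9.89 and 9.78 in the FAM60A controls against 9.96, 10.05 and 10.04 in the knockdown. In the SDS3 experiment the controls read 9.42, 9.59 and 9.50 and the knockdown arrays 10.99, 10.97 and 10.76. The SDS3 groups lay over 1 log2 unit apart, while the FAM60A groups were separated by less than their own spread. The rises were 0.21 ± 0.06 (adjusted p = 0.0189), which ended under poly-A scaling (0.11, adjusted p = 0.604), and 1.40 ± 0.08 (adjusted p = 4.89e-06), which did not (1.08, adjusted p = 2.62e-12). The difference between the knockdowns was 1.20 ± 0.10 (adjusted p = 1.22e-06), and the other ANGPTL4 probe set gave a difference of 1.23 (adjusted p = 1.32e-06). The FAM60A call was lost without control 1 or 3 or knockdown array 2 or 3 (0.18 to 0.20, adjusted p 0.0615 to 0.0778).

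ADM, which encodes the vasodilator peptide adrenomedullin, showed the opposite order. It read 12.83, 12.86 and 12.85 in the FAM60A controls and 13.47, 13.34 and 13.34 in the knockdown, then 11.42, 11.38 and 11.37 in the SDS3 controls and 11.39, 11.62 and 11.51 in the SDS3 knockdown. The FAM60A groups were well separated, and the SDS3 groups overlapped. ADM rose by 0.54 ± 0.06 (1.45-fold, adjusted p = 3.49e-05) with FAM60A siRNA, differed by 0.12 (adjusted p = 0.211) with SDS3 siRNA, and the changes differed by -0.42 ± 0.09 (adjusted p = 0.00264).

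STC2 was a hypoxia-induced gene that fell, in the SDS3 knockdown. It read 9.26, 9.37 and 9.17 in the FAM60A controls and 9.26, 9.12 and 9.11 in the knockdown, which overlapped, and 8.11, 8.43 and 8.41 in the SDS3 controls against 7.61, 7.70 and 7.40 in the knockdown, which did not. The change was -0.10 (adjusted p = 0.276) with FAM60A siRNA and -0.75 ± 0.11 (adjusted p = 0.000678) with SDS3 siRNA, a difference of -0.64 ± 0.13 (adjusted p = 0.00258). A second STC2 probe set gave a rise of 0.38 (adjusted p = 0.00399) with FAM60A siRNA and a fall of 1.02 (adjusted p = 0.000204) with SDS3 siRNA, so the direction in the FAM60A knockdown depends on the probe set.

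Of the receptors and stress proteins, VLDLR rose strongly in both experiments. It read 9.69, 9.45 and 9.73 in the FAM60A controls and 10.67, 10.63 and 10.56 in the knockdown, and 9.11, 9.26 and 9.23 in the SDS3 controls and 9.86, 9.87 and 9.96 in the knockdown. All knockdown arrays lay above all of their controls. The rises were 1.00 ± 0.08 (adjusted p = 3.1e-06) and 0.70 ± 0.06 (adjusted p = 4.62e-05), both of which passed under poly-A scaling as well (0.90 and 0.37). The difference, -0.30, passed narrowly (adjusted p = 0.045) and did not pass after that scaling (adjusted p = 0.0588) or in 7 of the 12 fits that left out 1 array (-0.30 to -0.21, adjusted p 0.0804 to 0.0999).

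KDM3A, a histone H3 lysine 9 demethylase, read 10.43, 10.31 and 10.38 in the FAM60A controls and 10.97, 10.77 and 10.84 in the knockdown. In the SDS3 experiment it read 10.44, 10.42 and 10.43 in the controls and 11.03, 11.02 and 11.21 in the knockdown. It rose by 0.49 (adjusted p = 0.000175) and 0.66 ± 0.06 (adjusted p = 7.84e-05) without overlap of groups, and passed in both under poly-A scaling (0.38 and 0.33).

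NDRG1, a stress-responsive protein of growth arrest and differentiation, likewise rose in both. It read 11.00, 10.91 and 11.01 in the FAM60A controls and 11.53, 11.41 and 11.44 in the knockdown, and 9.97, 9.78 and 9.75 in the SDS3 controls and 10.49, 10.57 and 10.60 in the knockdown. The rises were 0.49 (1.40-fold, adjusted p = 7.67e-05) and 0.72 ± 0.07 (1.64-fold, adjusted p = 8.58e-05), again with no overlap, and their difference of 0.23 did not pass (adjusted p = 0.0785).

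BNIP3 and BNIP3L, paralogous mitophagy receptors, both rose in both experiments. BNIP3 rose by 0.26 (adjusted p = 0.00365) with FAM60A siRNA and by 0.27 (adjusted p = 0.00288) with SDS3 siRNA, the latter turning to -0.06 (adjusted p = 0.72) under poly-A scaling. The other BNIP3 probe set passed in neither (0.11, adjusted p = 0.327, and -0.09, adjusted p = 0.286), and the mean of both ended the SDS3 call (0.09, adjusted p = 0.149). BNIP3L read 11.40, 11.20 and 11.23 in the FAM60A controls and 11.56, 11.55 and 11.42 in the knockdown, and 10.63, 10.67 and 10.73 in the SDS3 controls and 11.27, 11.25 and 11.34 in the knockdown. The FAM60A groups nearly touched, and the SDS3 groups stood apart. BNIP3L rose by 0.24 (adjusted p = 0.0197) and by 0.61 ± 0.05 (adjusted p = 5.54e-05), and these calls ended under poly-A scaling (0.14 and 0.29). The FAM60A call was also lost without control 2 or 3 or knockdown array 1 or 2 (0.20 to 0.22, adjusted p 0.0624 to 0.0722). The difference of 0.37 (adjusted p = 0.00739) came out in the opposite direction, at -0.31 (adjusted p = 0.0148), on the other BNIP3L probe set, where the rises were 0.64 and 0.33.

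ANKRD37, an ankyrin repeat protein, rose with FAM60A siRNA by 0.48 (adjusted p = 0.000214) and differed by 0.22 (adjusted p = 0.115) with SDS3 siRNA. DDIT4, an inhibitor of mTORC1 signalling, rose by 0.31 (adjusted p = 0.00146) and 0.31 (adjusted p = 0.00348), the SDS3 value turning to -0.01 under poly-A scaling. The pyruvate dehydrogenase kinases, which inhibit pyruvate dehydrogenase, split. PDK3 rose with FAM60A siRNA by 0.38 (adjusted p = 0.00112), while PDK1 differed by -0.10 (adjusted p = 0.474). With SDS3 siRNA neither kinase passed, PDK3 at 0.12 (adjusted p = 0.176) and PDK1 at 0.08 (adjusted p = 0.278). Another PDK3 probe set also rose with FAM60A siRNA (0.24, adjusted p = 0.0373), while the remaining PDK3 probe sets did not pass (-0.0001, -0.08 and 0.19). A dimmer PDK3 probe set fell with SDS3 siRNA (-0.22, adjusted p = 0.028), and the others did not pass.

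GBE1, which adds branches to glycogen, was the other gene that fell with SDS3 siRNA. It read 12.70, 12.67 and 12.65 in the FAM60A controls and 12.59, 12.55 and 12.56 in the knockdown, and 11.50, 11.40 and 11.41 in the SDS3 controls and 10.82, 10.81 and 11.06 in the knockdown. Knockdown arrays were lower in both experiments, by a narrow margin in the first and a wide one in the second. The changes were -0.10 (adjusted p = 0.15) and -0.54 ± 0.08 (adjusted p = 0.000677), a difference of -0.44 (adjusted p = 0.00278).

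**Figure D2:**
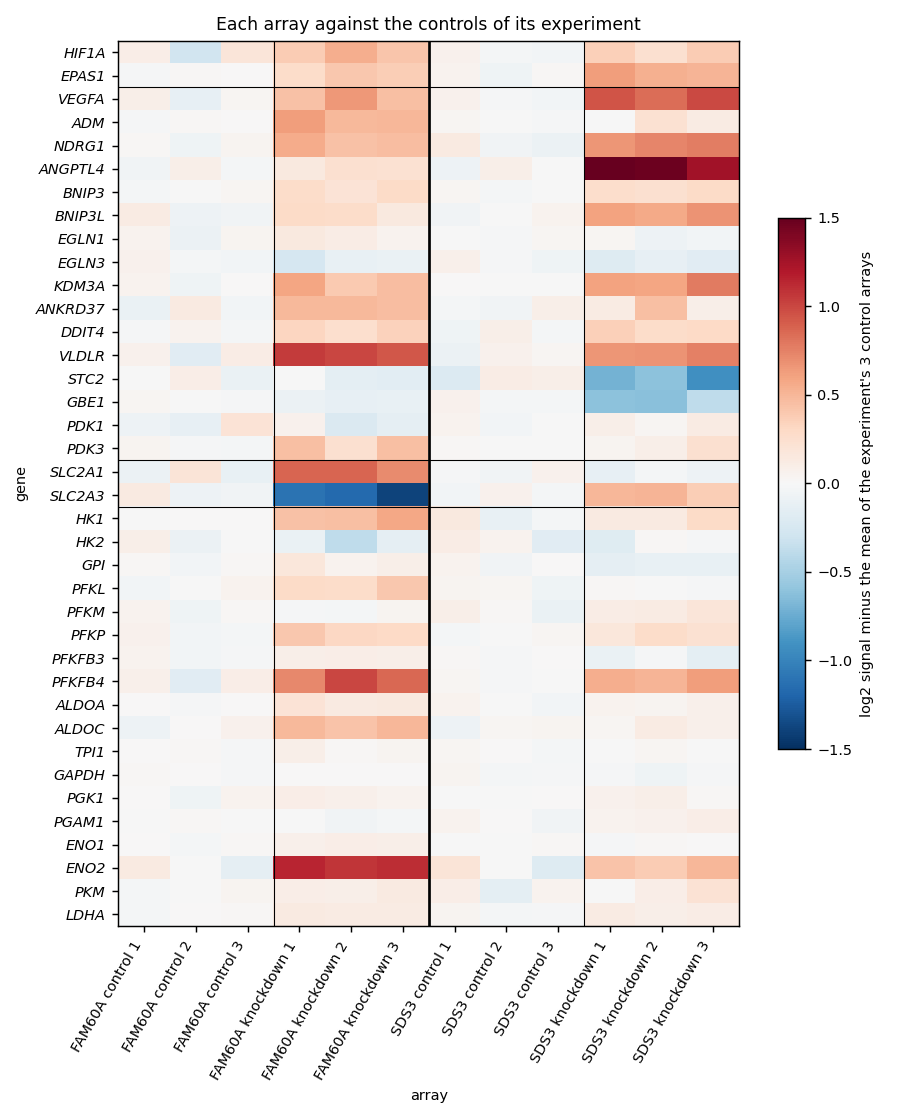
Each array's log2 signal minus the mean of its own controls for the measured genes, with arrays in columns by group and genes in rows by role. The colour scale runs from -1.5 to 1.5, and the 3 knockdown arrays of an experiment carry the same hue for ENO2, VLDLR, SLC2A1 and SLC2A3 in the FAM60A experiment and for ANGPTL4, VEGFA, STC2 and GBE1 in the SDS3 experiment.

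The glucose transporters moved against each other with FAM60A siRNA. SLC2A1 (GLUT1) carries basal glucose uptake in most cells, and SLC2A3 (GLUT3) is a high-affinity carrier best known from neurons; both are HIF targets. SLC2A1 read 9.40, 9.68 and 9.38 in the FAM60A controls and 10.36, 10.36 and 10.19 in the knockdown, and 9.43, 9.39 and 9.51 in the SDS3 controls and 9.32, 9.41 and 9.36 in the knockdown. The FAM60A knockdown arrays were all higher than their controls, and the SDS3 groups overlapped. It rose by 0.82 ± 0.09 (adjusted p = 3.11e-05) in the FAM60A knockdown and differed by -0.08 (adjusted p = 0.318) in the SDS3 knockdown, a difference of -0.90 ± 0.11 (adjusted p = 4.17e-05). On the other, dimmer SLC2A1 probe set the rise passed (0.64, adjusted p = 0.00644) and the difference did not (-0.46, adjusted p = 0.109).

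SLC2A3 read 10.53, 10.33 and 10.34 in the FAM60A controls and 9.30, 9.24 and 9.01 in the knockdown. In the SDS3 experiment it read 8.99, 9.09 and 9.00 in the controls and 9.52, 9.53 and 9.39 in the knockdown. Its arrays fell with FAM60A siRNA and rose with SDS3 siRNA, with no overlap in either experiment. The changes were -1.22 ± 0.09 (adjusted p = 1.53e-06) and 0.46 ± 0.06 (1.37-fold, adjusted p = 0.000468), a difference of 1.68 ± 0.11 (adjusted p = 2.23e-07). SLC2A3 was the only 1 of the 38 genes called in opposite directions, against 2.59% of all tested genes. Both other SLC2A3 probe sets fell with FAM60A siRNA (-1.09 and -0.95), and with SDS3 siRNA they gave 0.24 (adjusted p = 0.0189) and 0.29 (adjusted p = 0.0629). All SLC2A3 probe sets are of a kind whose sequence other transcripts may share, so their agreement does not show that SLC2A3 alone was read. The SDS3 rise did not pass under poly-A scaling (0.14, adjusted p = 0.395), whereas the difference did (1.46, adjusted p = 4.91e-11).

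The 18 glycolytic enzymes had smaller median changes than the 16 other hypoxia-induced genes measured, with fewer calls. With FAM60A siRNA 7 enzymes rose (HK1, PFKL, PFKP, PFKFB4, ALDOA, ALDOC and ENO2) and none fell, which is 38.9% higher against 19.2% of all tested genes, with a median change of 0.10, and 11 of the 16 hypoxia-induced genes rose, with a median of 0.28. With SDS3 siRNA 3 enzymes rose (PFKP, PFKFB4 and ENO2), with a median of 0.07; this 16.7% is near the 15.8% of all tested genes. Of the 16 hypoxia-induced genes 8 rose and 2 fell, with a median of 0.24. Under poly-A scaling 0 of the 18 enzymes passed as higher in the SDS3 knockdown, against 497 of all 18621 tested genes, and PFKP turned to -0.10. These are counts and medians, and the classes were not tested against each other. The split of the enzymes into steps of the pathway that follows was made after the values were known.

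In the hexose steps, from glucose to triose phosphate, 5 of 9 enzymes rose with FAM60A siRNA and 1 of 9 with SDS3 siRNA, where 19.2% and 15.8% of all tested genes were called higher, so the SDS3 count is no more than that background. HK1, a hexokinase that traps glucose in the cell, read 11.76, 11.77 and 11.77 in the FAM60A controls and 12.21, 12.22 and 12.35 in the knockdown, and it rose by 0.49 (adjusted p = 6.39e-05). With SDS3 siRNA HK1 differed by 0.18 (adjusted p = 0.1). HK2, the hexokinase best known as a HIF target, passed in neither, at -0.21 (adjusted p = 0.0685) and -0.06 (adjusted p = 0.636). GPI, which turns glucose 6-phosphate into fructose 6-phosphate, passed in neither as well (0.10 and -0.12, adjusted p = 0.19 and 0.108).

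Among the phosphofructokinases, which make the committed step, PFKP rose in both knockdowns by 0.34 (adjusted p = 0.000906) and 0.22 (adjusted p = 0.0109). PFKL rose with FAM60A siRNA by 0.32 (adjusted p = 0.00147) and had a value of 0.00 (adjusted p = 0.999) with SDS3 siRNA, which turned to -0.32 (adjusted p = 0.0488) under poly-A scaling. PFKM did not pass (-0.00 and 0.14, adjusted p = 0.988 and 0.125). The FAM60A calls of both PFKL and PFKP ended under that scaling (0.22 and 0.24).

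ALDOC, the brain-type aldolase, read 8.43, 8.52 and 8.58 in the FAM60A controls and 9.00, 8.94 and 9.01 in the knockdown, and rose by 0.48 (adjusted p = 9.75e-05). With SDS3 siRNA its groups overlapped and it differed by 0.08 (adjusted p = 0.314). ALDOA, the main aldolase of most tissues, rose by 0.16 (adjusted p = 0.0345) and differed by 0.06 (adjusted p = 0.443), and its call was lost whichever of the 6 arrays was left out (0.14 to 0.18, adjusted p 0.0564 to 0.0992). TPI1, which interconverts the triose phosphates, passed in neither (0.05 and 0.00).

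PFKFB3 and PFKFB4 make and break down fructose 2,6-bisphosphate, the activator of phosphofructokinase. PFKFB4 read 8.76, 8.52 and 8.80 in the FAM60A controls and 9.42, 9.69 and 9.56 in the knockdown, and 9.41, 9.36 and 9.37 in the SDS3 controls and 9.92, 9.89 and 10.01 in the knockdown. The groups were separate in both experiments, by 0.86 ± 0.09 (adjusted p = 2.52e-05) and 0.56 ± 0.05 (adjusted p = 7.84e-05), the second ending under poly-A scaling (0.24, adjusted p = 0.139). PFKFB3 passed in neither (0.09 and -0.09, adjusted p = 0.21 and 0.264). A dimmer PFKFB4 probe set did not pass either (0.17 and 0.16, adjusted p = 0.196 and 0.262).

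In the triose steps, from glyceraldehyde 3-phosphate to lactate, ENO2 alone passed out of 7 enzymes in each knockdown. Of all tested genes 19.2% were called higher with FAM60A siRNA and 15.8% with SDS3 siRNA, so this count is no more than that background. ENO2 read 10.60, 10.46 and 10.33 in the FAM60A controls and 11.60, 11.53 and 11.56 in the knockdown, and 9.52, 9.32 and 9.13 in the SDS3 controls and 9.74, 9.71 and 9.82 in the knockdown. All FAM60A knockdown arrays lay near 1 log2 unit above the controls, and the SDS3 arrays lay above theirs by a smaller gap. ENO2 rose by 1.10 ± 0.07 (adjusted p = 9.34e-07) and 0.44 ± 0.09 (adjusted p = 0.00615), the second ending under poly-A scaling (0.11, adjusted p = 0.479). The difference between the knockdowns was -0.67 ± 0.12 (adjusted p = 0.00116).

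The other 6 enzymes of these steps, GAPDH, PGK1, PGAM1, ENO1, PKM and LDHA, ranged from -0.03 to 0.13 with FAM60A siRNA (adjusted p 0.0811 to 0.912) and from -0.03 to 0.11 with SDS3 siRNA (adjusted p 0.128 to 0.995). Their 95% confidence intervals reached from -0.15 to 0.24 and from -0.15 to 0.29. A dimmer ENO1 probe set rose with FAM60A siRNA (0.23, adjusted p = 0.0179), while the remaining ENO1 probe sets did not pass. With a trended, robust fit PKM passed as higher with FAM60A siRNA (0.11, adjusted p = 0.0172). GAPDH, often used as a reference gene, read 15.24, 15.23 and 15.22 in the FAM60A controls and 15.24, 15.24 and 15.24 in the knockdown, and 15.00, 14.93 and 14.94 in the SDS3 controls and 14.93, 14.89 and 14.94 in the knockdown. Its change was 0.01 (95% confidence interval -0.10 to 0.12) and -0.03 (-0.15 to 0.08), and under poly-A scaling the SDS3 value was -0.36 (adjusted p = 0.0313).

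LDHA, which turns pyruvate into lactate, read 14.80, 14.84 and 14.86 in the FAM60A controls and 14.97, 14.96 and 14.96 in the knockdown, and 14.49, 14.42 and 14.43 in the SDS3 controls and 14.57, 14.54 and 14.56 in the knockdown. The knockdown arrays lay above the controls in both experiments, by a small margin that did not pass (0.13, adjusted p = 0.0811, and 0.11, adjusted p = 0.128). With a trended, robust fit LDHA passed as higher in both (adjusted p = 0.00296 and 0.00423), and in the FAM60A knockdown also with the mean of probe sets (adjusted p = 0.0462) and with all 12 arrays in 1 fit (adjusted p = 0.0404). These enzymes are bright: 10 of the 18 had a mean of at least log2 13, where the brightest probe set of each array read 15.13 to 15.43. Of those 10, 2 were called with FAM60A siRNA and 1 with SDS3 siRNA, and of the 8 dimmer enzymes 5 and 2. Of the 477 tested genes at least that bright, 37.1% were called with FAM60A siRNA and 30.6% with SDS3 siRNA. Whether brightness plays a part in the small changes was not tested.

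**Figure D3:**
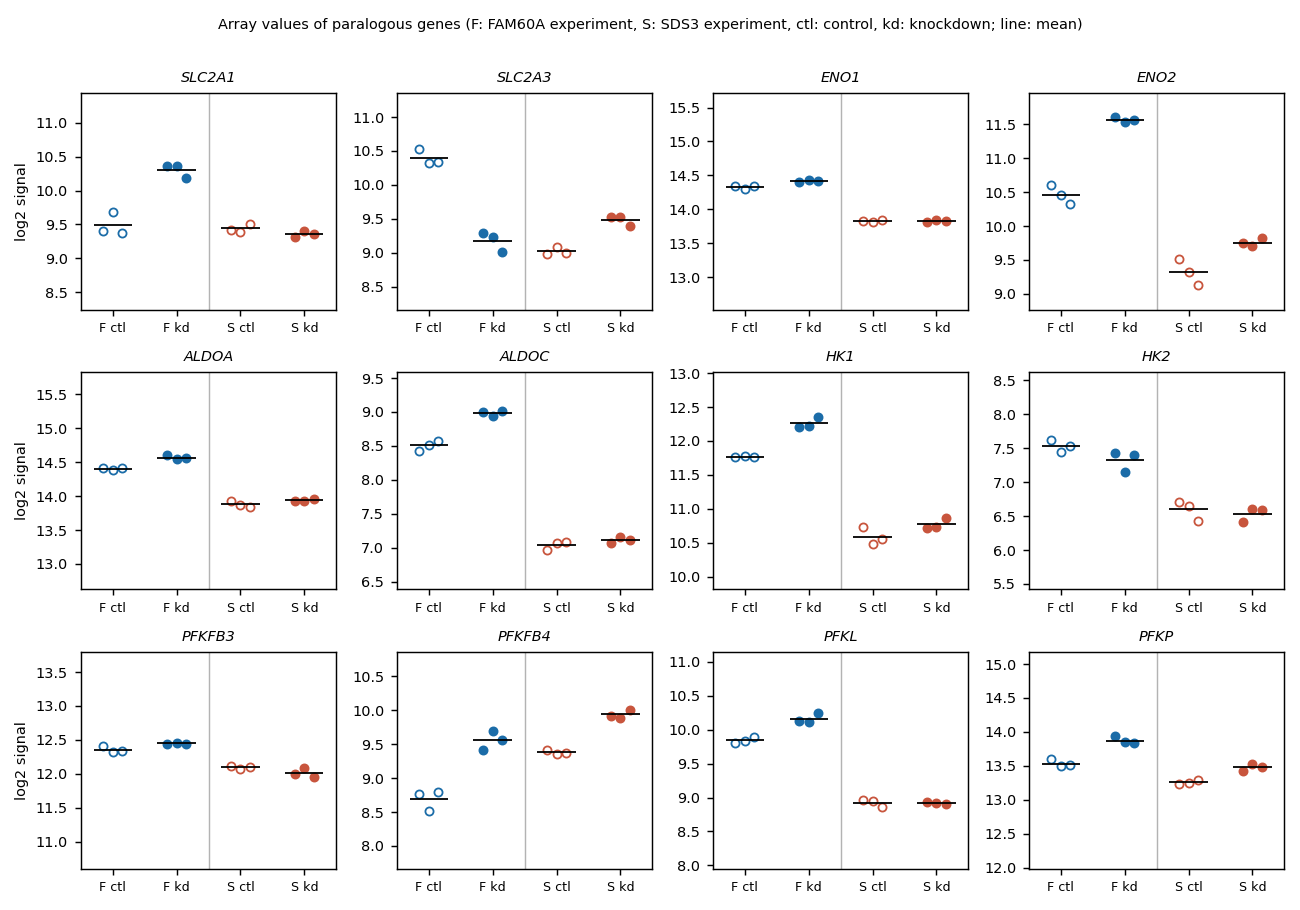
Log2 signal of each array for 6 pairs of related genes, with open circles for control arrays, filled circles for knockdown arrays, lines for the means of 3 arrays and the same height of axis in every panel. SLC2A3 drops while SLC2A1 climbs in the FAM60A knockdown, and ENO2 and PFKFB4 climb in both knockdowns while ENO1 and PFKFB3 stay near their controls.

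Set side by side, 13 genes rose in both knockdowns (34.2% of the 38, against 9.33% of all tested genes): both HIF alpha subunits, 8 of the other hypoxia-induced genes and 3 enzymes. A further 8 passed as higher only with FAM60A siRNA, 2 as lower only with SDS3 siRNA, and 14 passed in neither, 11 of these being enzymes. Of all tested genes 19.2% were higher with FAM60A siRNA and 18.8% lower with SDS3 siRNA, whatever their call in the other knockdown. Passing in only 1 knockdown is no test of a difference. For ANKRD37, PDK3 and ALDOA, among the 8, the difference did not pass (adjusted p = 0.142, 0.0557 and 0.273). The changes had the same sign in 28 of the 38 genes and in 11193 of the 18621 tested genes. Across genes, which are not independent replicates, Spearman's rho between the knockdowns was 0.589 over the 38 and 0.408 over all 18621 tested genes; Pearson's r was 0.334 and 0.557, and 0.512 without SLC2A3. The experiments share no array.

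The difference between the knockdowns passed for 14 of the 38 genes, 4 with a more positive change under SDS3 siRNA (SLC2A3, ANGPTL4, VEGFA and BNIP3L) and 10 with a more negative one, against 9.99% and 15.3% of all tested genes and 25.3% in all. Of the 10, 5 were enzymes (ENO2, ALDOC, PFKL, HK1 and GPI), 4 were hypoxia-induced genes (STC2, GBE1, ADM and VLDLR) and the last was SLC2A1. The values for PFKL were -0.32 (adjusted p = 0.00668), for ALDOC -0.39 (adjusted p = 0.00222), for HK1 -0.31 (adjusted p = 0.0306) and for GPI -0.22 (adjusted p = 0.0372). Leaving out 1 array at a time ended the HK1 difference in 7 of 12 fits (adjusted p up to 0.0792) and the GPI difference in 9 of 12 (adjusted p up to 0.0842). On the probe set that stood for it, no enzyme had a more positive change with SDS3 siRNA that passed. A dimmer PFKP probe set did (0.37, adjusted p = 0.0321). It read 0.02 with FAM60A siRNA and rose by 0.39 (adjusted p = 0.0087) with SDS3 siRNA.

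**Figure D4:**
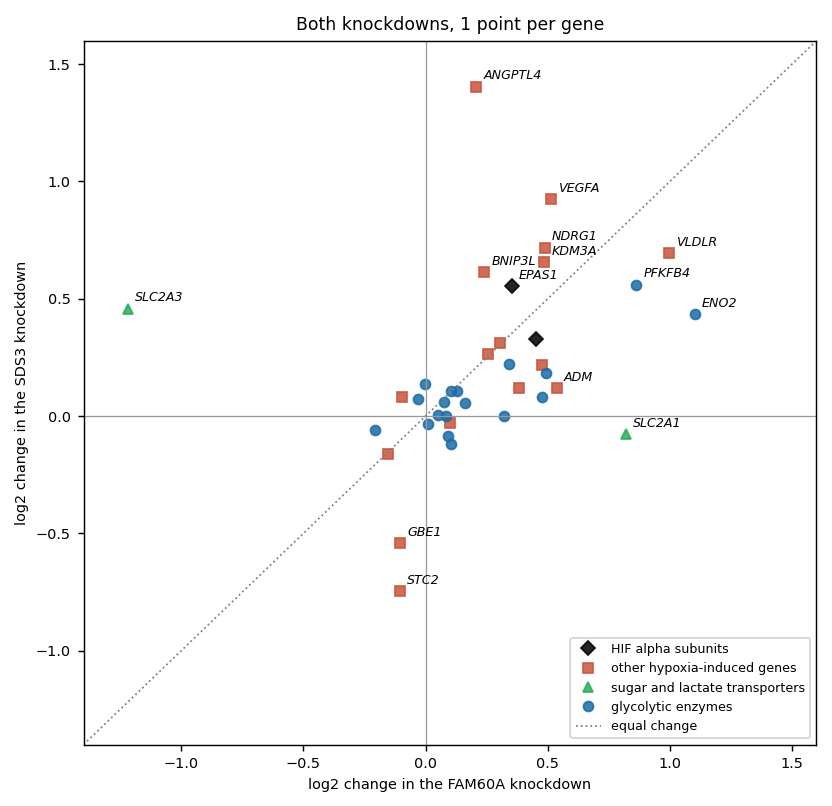
Log2 change in the SDS3 knockdown against that in the FAM60A knockdown, 1 point for each of the 38 genes, marked by class, with a dotted line where both changes are equal. ANGPTL4 stands highest at 1.40, SLC2A3 lies farthest left at -1.22, and SLC2A1 and ENO2 lie to the right and below the line.

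The array carries 84 tested probe sets for the 38 genes, and 23 genes had more than 1. Of the 22 genes called with FAM60A siRNA, 13 had another tested probe set, and for 8 of them another one passed in the same direction and for 0 in the opposite one. With SDS3 siRNA 9 of 16 called genes had another, 6 passed in the same direction and 0 in the opposite one. Of the 14 differences, 7 genes had another, 3 passed in the same direction and 1, BNIP3L, in the opposite one. All 6 GAPDH probe sets stayed uncalled in both knockdowns. Of the PGK1 probe sets 1 rose with FAM60A siRNA (0.25, adjusted p = 0.00732), as did 1 of ENO1 (0.23, adjusted p = 0.0179).

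**Figure D5:**
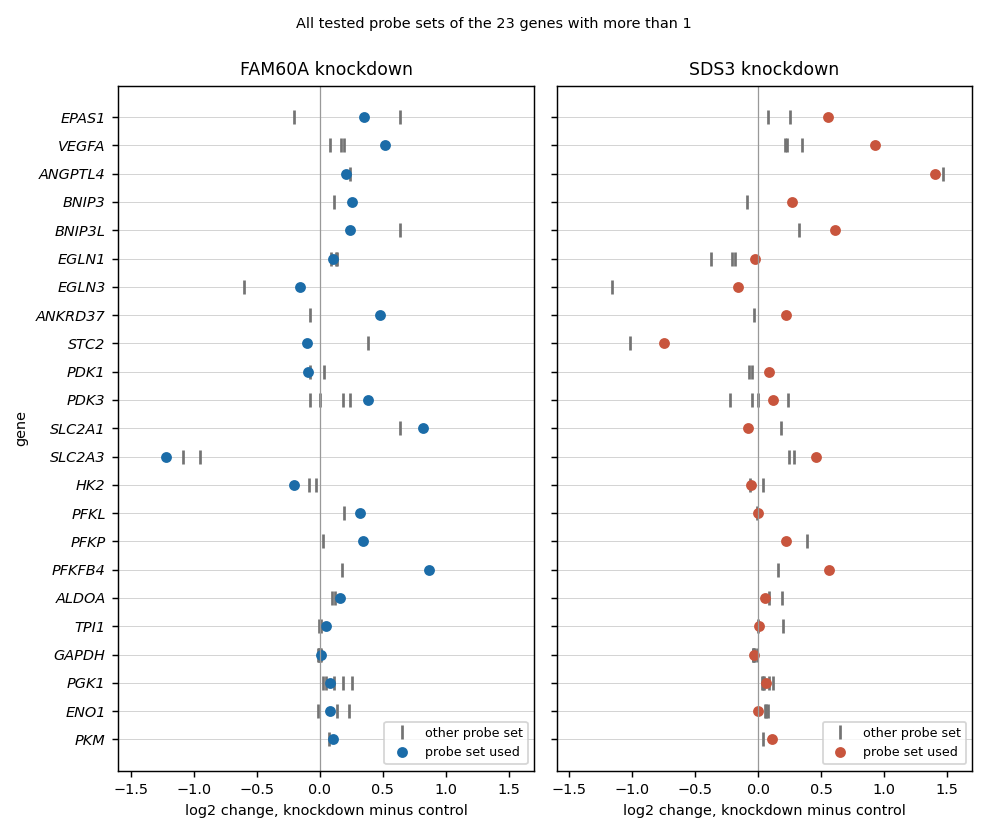
Log2 change in each knockdown for every tested probe set of genes with more than 1, with a filled circle for the probe set that stands for the gene and a bar for each other one. The SLC2A3 and GAPDH probe sets lie close together, while those of VEGFA, STC2, EGLN3 and BNIP3L are spread out.

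Other genes of the pathway, taken from lists that hold none of the 40, moved in both directions. Of 15 oxygen sensors and HIF partners, 4 rose and 4 fell with FAM60A siRNA and 5 rose and 2 fell with SDS3 siRNA, with median changes of -0.00 and 0.08. That is 26.7% higher and 26.7% lower, then 33.3% and 13.3%, against 19.2% and 17.6%, then 15.8% and 18.8%, of all tested genes. ARNT2, a partner of the alpha subunits, rose by 0.92 (adjusted p = 1.04e-06) and 0.35 (adjusted p = 0.00127). HIF1AN, the asparaginyl hydroxylase that blocks HIF's contact with its coactivators, fell in both (-0.61, adjusted p = 1.47e-05, and -0.51, adjusted p = 0.000103). CITED2, which competes with HIF for the coactivator CBP, rose by 0.59 (adjusted p = 0.000149) and 0.29 (adjusted p = 0.0108). CREBBP, which encodes CBP, rose by 0.30 (adjusted p = 0.0117) with SDS3 siRNA and read -0.00 (adjusted p = 0.986) with FAM60A siRNA. The SDS3 rises of CITED2 and CREBBP are smaller than the 0.32 that poly-A scaling takes off every SDS3 change. For the genes of these other lists, calls under that scaling and further probe sets are not given.

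Of 32 further hypoxia-induced genes tested, 11 rose and 7 fell with FAM60A siRNA (median 0.11). With SDS3 siRNA 9 rose and 8 fell (median 0.00). That is 34.4% higher and 21.9% lower, then 28.1% and 25%, against 19.2% and 17.6%, then 15.8% and 18.8%, of all tested genes. P4HA1, a collagen prolyl hydroxylase, fell by 1.09 (adjusted p = 2.02e-06) with FAM60A siRNA and read -0.10 (adjusted p = 0.247) with SDS3 siRNA. HMOX1, the heme oxygenase, rose by 0.93 (adjusted p = 1.23e-05) and 0.55 (adjusted p = 8.06e-05). ANG, which encodes angiogenin, fell in both (-0.73, adjusted p = 6.35e-06, and -1.26, adjusted p = 5.71e-06). The circadian repressor BHLHE41 rose by 0.36 (adjusted p = 0.00198) and 1.00 (adjusted p = 5.24e-05), and TMEM45A, a membrane protein, fell in both (-0.41, adjusted p = 0.000699, and -0.95, adjusted p = 5.75e-06).

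Of 36 further enzymes and transporters of sugar, pyruvate and glycogen tested, 7 rose and 7 fell with FAM60A siRNA (median -0.05), and 6 rose and 11 fell with SDS3 siRNA (median -0.06). Their shares of 19.4% higher and 19.4% lower, then 16.7% higher, are near those of all tested genes, and 30.6% were lower with SDS3 siRNA, against 18.8%. PDK4, a pyruvate dehydrogenase kinase better known from fasting than from hypoxia, fell by 1.05 (adjusted p = 7.03e-07) with FAM60A siRNA and fell by 1.63 (adjusted p = 4.26e-06) with SDS3 siRNA. The glycogen phosphorylases PYGB and PYGL rose with FAM60A siRNA by 0.79 (adjusted p = 2.22e-05) and 0.70 (adjusted p = 2.78e-06), and with SDS3 siRNA by 0.62 (adjusted p = 0.000174) and 0.43 (adjusted p = 0.000376). SLC2A12, a glucose transporter, fell by 1.65 (adjusted p = 2.16e-06) with SDS3 siRNA and read -0.23 (adjusted p = 0.131) with FAM60A siRNA. PGM2, a phosphopentomutase, fell in both (-0.39, adjusted p = 0.000348, and -0.81, adjusted p = 1.94e-05).

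The letters that HIF binds are shown for 6 promoters, because genes that rose and genes that passed in neither knockdown both carry them. The first 3 genes rose with FAM60A siRNA and the last 3 passed in neither. The sequences are from RefSeq (GRCh38.p14), read 5′ to 3′ on the gene's strand from the window upstream of a gene's start. Capitals mark ACGTG or GCGTG, or their reverse complement on the other strand; CACGTG, an E-box that other factors also bind, holds ACGTG on both strands.
ENO2 chr12:6914442-6914486 (plus strand): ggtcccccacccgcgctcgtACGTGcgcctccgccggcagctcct
PFKFB4 chr3:48556945-48556989 (minus strand): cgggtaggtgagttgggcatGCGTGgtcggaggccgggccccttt
ANKRD37 chr4:185396659-185396722 (plus strand): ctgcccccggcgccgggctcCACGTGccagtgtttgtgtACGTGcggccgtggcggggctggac
LDHA chr11:18394358-18394514 (plus strand): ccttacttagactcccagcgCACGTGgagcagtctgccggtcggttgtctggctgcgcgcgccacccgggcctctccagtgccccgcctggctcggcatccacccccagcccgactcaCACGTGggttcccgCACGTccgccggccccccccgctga
PGK1 chrX:78104017-78104089 (plus strand): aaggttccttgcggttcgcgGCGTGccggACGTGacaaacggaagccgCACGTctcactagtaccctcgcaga
GAPDH chr12:6535163-6535208 (plus strand): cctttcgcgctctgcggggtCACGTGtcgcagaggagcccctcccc

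An upstream window of 250 bases was at hand for 36 of the 40 genes, all but VEGFA, NDRG1, BNIP3L and SLC2A3. ACGTG or GCGTG, on either strand, stood in 41 of their 64 windows (64.1%), against 43.2% of all 35116 windows, and 32 of the 36 genes had a window with one. ACGTG alone stood in 39.1% of the windows against 18.5% of all windows, and CACGTG in 12.5% against 6.34%. Of the genes that rose in both knockdowns, 10 had a window and all 10 held either core, 5 of them ACGTG. Of the 14 that passed in neither, 11 held either core, 10 of them ACGTG. Over all 27305 genes with a window, 47.4% held either core and 21.7% ACGTG. Those 27305 genes share 35116 windows, fewer per gene than the 64 windows of the 36 genes, and more windows per gene raise a count by gene. These matches are a description of letters and do not show binding.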

How the data were processed

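RNA from 12 samples of A549 cells, 1 ug of total RNA each, was biotin-labelled and hybridised to a 1-colour Affymetrix array with 54675 probe sets. The values deposited by the authors are linear probe set intensity after RMA, per the submitters' processing notes, which give no version; joint or separate normalization of the experiments is not stated there. RMA gives arrays that are normalized together nearly the same distribution, which takes out a shift common to most transcripts. The 12 arrays do not share a common distribution. Their median signals were 186 to 192.6 in the FAM60A and 96.8 to 98.3 in the SDS3 experiment. The values were expected on the log2 scale and proved linear, so their log2 was taken.

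The platform annotation gives 1 gene symbol for 41097 probe sets, several for 1801 and none for 11777. For 41043 of the first kind the current symbol came from RefSeq's GRCh38.p14 table, by Entrez identifier. Each gene's brightest probe set on average stood for it, among those naming that gene alone. Testing kept the 18621 of 19775 genes that reached log2 5 on 3 or more of the 12 arrays. Each knockdown was fitted against its own controls over 6 arrays using R 4.3.3 and limma 3.58.1 (eBayes, adjusted by Benjamini-Hochberg across the tested genes, threshold 0.05), and the knockdowns' changes were contrasted over all 12 arrays. Adjusted p-values are limma's. The data.table package (1.17.8) read the files. Values of other probe sets come from 1 limma run over all probe sets, adjusted separately. Control probe sets were compared by exact permutation.

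The 40 genes and all lists were chosen with earlier results of these data known. Array-by-array values are given for the targets, HIF1A, EPAS1, VEGFA, GAPDH and each gene passing with a log2 change or difference of at least 0.5, besides further genes set out with their paralogs or classes after their values were seen; of other lists, up to 3 passing genes with the largest change in each knockdown are named. The scripts were tested on simulated data. Alternatives were other filters, probe set rules, normalizations, fits, thresholds and scalings, a replicate block and each array left out; scaling to the hybridisation control probe sets was added after seeing the data. The number of arrays limits precision.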

Additional observations from a re-analysis of the deposited data

Results flagged for a closer look

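The change differed between the knockdowns, by limma's contrast over all 12 arrays, for 14 genes. The change with SDS3 siRNA was the more positive one for SLC2A3 (1.68, adjusted p = 2.23e-07), ANGPTL4 (1.20, adjusted p = 1.22e-06), VEGFA (0.41, adjusted p = 0.00846) and BNIP3L (0.37, adjusted p = 0.00739). It was the more negative one for SLC2A1 (-0.90, adjusted p = 4.17e-05), ENO2 (-0.67, adjusted p = 0.00116), STC2 (-0.64, adjusted p = 0.00258), GBE1 (-0.44, adjusted p = 0.00278), ADM (-0.42, adjusted p = 0.00264) and ALDOC (-0.39, adjusted p = 0.00222). It was also more negative, with smaller values, for PFKL (-0.32, adjusted p = 0.00668), HK1 (-0.31, adjusted p = 0.0306), VLDLR (-0.30, adjusted p = 0.045) and GPI (-0.22, adjusted p = 0.0372). All values are log2.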

How the results depend on the processing

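Scaling to the poly-A probe sets moved the counts most: with FAM60A siRNA 11 genes passed as higher (6 hypoxia-induced genes, 4 enzymes), and with SDS3 siRNA 5 as higher (5 hypoxia-induced genes, 0 enzymes) and 11 as lower. All tested genes then split 1349 higher to 2251 lower with FAM60A siRNA (3577 to 3278 as normalized) and 497 to 9121 with SDS3 siRNA (2941 to 3498). In the SDS3 knockdown 17 of the 38 changes turned from positive to negative, 3 of them called as normalized: BNIP3 (-0.058), DDIT4 (-0.011) and PFKP (-0.10). PFKL (-0.32) was among the 14 others. Without probe sets of shared sequence STC2 read 0.38 with FAM60A siRNA (adjusted p = 0.00199). A count of 2 lower genes with FAM60A siRNA came from a filter at log2 7, the mean of probe sets, quantile normalization, array weights and the replicate block. Lower genes with SDS3 siRNA numbered 4 with the mean of probe sets, and higher enzymes 5 with quantile normalization or a trended, robust fit. More positive differences numbered 2 with the mean of probe sets and with either control scaling. Leaving out each array in turn gave 18 to 19 higher genes, 1 to 2 lower, 9 to 10 higher hypoxia-induced genes and 6 higher enzymes with FAM60A siRNA. With SDS3 siRNA it gave 14 to 15 higher genes, 2 lower and 3 to 4 higher enzymes. It gave 4 to 5 more positive and 7 to 11 more negative differences.

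With the replicate number as a block, 20 genes rose and 2 fell with FAM60A siRNA, 14 and 2 with SDS3 siRNA, and 4 and 7 differences passed. Same-numbered arrays correlated from -0.12 to 0.03 in their deviations from group means. No effect shared by same-numbered arrays was seen, which does not settle whether the numbers pair the samples.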

Other observations

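Probe sets for 18S ribosomal RNA were 0.28 (log2) higher in the FAM60A and 0.53 higher in the SDS3 knockdown arrays than in their controls (exact permutation, two-sided p = 0.1 each, the smallest possible). By the same permutation test, the 3′ minus 5′ probe set signal differed by -0.09 for ACTB (p = 0.1) and by 0.00 for GAPDH (p = 1) in the FAM60A experiment, and by -0.01 (p = 0.7) and 0.00 (p = 1) in the SDS3 experiment. Of the epithelial markers, CDH1 fell by 1.52 and EPCAM by 0.58 with SDS3 siRNA. Both also fell with FAM60A siRNA (-0.49 and -1.22). KRT7 rose in both experiments (0.27 with FAM60A and 0.25 with SDS3 siRNA). KRT19 rose with FAM60A siRNA (0.50) and fell with SDS3 siRNA (-0.35), where KRT8 and KRT18 fell as well (-0.35 and -0.25). The part of these shifts in the changes of the hypoxia and glycolysis genes was not tested.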
